A study of Homo sapiens with 42 samples.

Results

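The 10 genes described here carry glucose into the cell and convert it to lactate: the glucose transporters SLC2A1 (GLUT1) and SLC2A3 (GLUT3), the hexokinases HK1 and HK2, and the enzymes PFKP, ALDOA, PGK1, ENO1, PKM and LDHA. They were chosen by name, and each symbol matched 1 of the 58243 gene rows in both the mRNA and the nuclear RNA count table. The cells were K562, an established human line from chronic myeloid leukaemia in which the fusion kinase BCR-ABL1 is active. Untreated cells (CTRL) were compared with cells given 1 μM imatinib (IM), which inhibits that kinase, 5 μM JTE-607 (JTE), which inhibits the 3′-end nuclease CPSF73, or 110 mM KCl as a hyperosmotic shock. Poly(A) mRNA of whole cells was sequenced from CTRL, IM for 1, 6 and 18 h, JTE at these same times, and KCl after 1 or 3 h (27 libraries), and rRNA-depleted nuclear RNA from CTRL, IM for 1 and 18 h, JTE for 1 h and KCl for 1 h (15 libraries), with 3 biological replicates per group. All groups share 1 cell line, and the sample labels name RPMI1640 as the culture medium whereas the study's methods name Iscove's modified Dulbecco's medium. These media differ in their glucose content, and which of them was used for these libraries is not settled here.

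Glucose enters cells through facilitative transporters of the SLC2A family and is trapped by hexokinase as glucose 6-phosphate. Phosphofructokinase commits it to glycolysis, aldolase splits the sugar, and phosphoglycerate kinase and pyruvate kinase form ATP before lactate dehydrogenase turns pyruvate into lactate and regenerates NAD+. Several of these genes are well-known targets of the transcription factors MYC and HIF-1, and growing leukaemia cells are known for high glucose use.

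The libraries held between 16439848 and 62953314 counts for mRNA and between 16175394 and 25103205 for nuclear RNA, and no member had fewer than 103 counts in any library. All 12 K562 markers checked, among them HBG1, GATA1 and BCR, had a mean level of at least 1 CPM (the count scaled to library size) in every group. Of 6 markers of other cell types, EPCAM alone was abundant (90.98 ± 4.14 CPM in mRNA CTRL, SD, n = 3). The nuclear transcript MALAT1 was at 2660 CPM in mRNA CTRL and 13190 CPM in nuclear CTRL, while mitochondrial MT-CO1 remained at 10950 CPM in nuclear CTRL against 14870 CPM in mRNA. Each gene was tested by quasi-likelihood in edgeR, and p-values were adjusted over all genes tested by the Benjamini-Hochberg method. A call required an adjusted p under 0.05 together with a change beyond 0.6 on the log2 scale. Every comparison with CTRL within a fraction uses the same 3 CTRL libraries. CTRL has no labelled time, so time under treatment and time in culture cannot be told apart. In bulk RNA, fewer cells of one kind and less RNA per cell cannot be told apart.

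Because the 7 members called after 18 h of IM moved in opposite directions, the 250 bases upstream of their first listed start are shown for the 6 that have an entry in the RefSeq promoter table (GRCh38.p14). SLC2A3 is named only. Each sequence is written 5′ to 3′ on the gene's own strand. Capitals mark matches on either strand to ACGTG, the core bound by HIF-1, to CACGTG, the E-box bound by MYC with MAX, which holds ACGTG on both strands, or to GGGCGG, the GC box.
SLC2A1 (chr1:42958869-42959118, minus strand): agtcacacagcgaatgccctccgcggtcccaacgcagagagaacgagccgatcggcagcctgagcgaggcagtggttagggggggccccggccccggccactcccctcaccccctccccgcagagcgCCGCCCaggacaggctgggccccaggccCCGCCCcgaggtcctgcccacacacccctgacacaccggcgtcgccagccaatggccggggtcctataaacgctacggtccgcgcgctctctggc
HK2 (chr2:74833877-74834126, plus strand): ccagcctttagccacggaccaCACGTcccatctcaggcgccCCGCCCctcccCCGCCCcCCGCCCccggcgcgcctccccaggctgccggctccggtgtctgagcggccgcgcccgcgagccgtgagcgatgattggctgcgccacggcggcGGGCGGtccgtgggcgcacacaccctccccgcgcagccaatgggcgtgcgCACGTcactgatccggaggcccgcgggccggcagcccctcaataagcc
PGK1 (chrX:78103998-78104247, plus strand): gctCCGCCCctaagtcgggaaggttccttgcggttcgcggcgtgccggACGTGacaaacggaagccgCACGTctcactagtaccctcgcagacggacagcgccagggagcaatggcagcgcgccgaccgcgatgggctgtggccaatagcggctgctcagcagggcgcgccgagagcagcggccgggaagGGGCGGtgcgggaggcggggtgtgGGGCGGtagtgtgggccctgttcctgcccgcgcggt
ENO1 (chr1:8878687-8878936, minus strand): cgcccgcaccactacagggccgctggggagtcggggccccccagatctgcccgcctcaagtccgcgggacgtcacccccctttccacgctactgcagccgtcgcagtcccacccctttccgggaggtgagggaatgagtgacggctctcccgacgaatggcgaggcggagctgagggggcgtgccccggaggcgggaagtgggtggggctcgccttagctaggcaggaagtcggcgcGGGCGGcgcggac
PKM (chr15:72231191-72231440, minus strand): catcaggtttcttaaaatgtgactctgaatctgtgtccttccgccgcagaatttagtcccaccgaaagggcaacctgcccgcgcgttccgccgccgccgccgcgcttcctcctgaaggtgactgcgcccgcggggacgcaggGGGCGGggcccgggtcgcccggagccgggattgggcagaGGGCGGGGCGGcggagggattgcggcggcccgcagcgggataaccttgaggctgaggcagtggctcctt
LDHA (chr11:18394313-18394562, plus strand): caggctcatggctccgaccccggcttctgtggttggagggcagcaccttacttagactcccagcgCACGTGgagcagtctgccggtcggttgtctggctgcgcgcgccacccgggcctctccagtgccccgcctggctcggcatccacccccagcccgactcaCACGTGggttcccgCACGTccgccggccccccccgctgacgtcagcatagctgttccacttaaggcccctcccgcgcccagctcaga
ACGTG was found in 3 of these 6 windows (HK2, PGK1 and LDHA) and in 18.5% of the 35116 windows of the same length in the table. CACGTG occurred in 1 of the 6, that of LDHA with 2 matches, and in 6.34% of all windows. GGGCGG occurred in 5 of the 6, including the SLC2A1 window, and in 42.6% of all. These counts rest on the first listed start: the window at the second start of HK2 held 2 matches to CACGTG and 4 to ACGTG, and that of LDHA held neither. Of the members not called, ALDOA had 1 match to ACGTG in its first window, and HK1 and PFKP had none there. At later starts ALDOA held up to 2 matches to ACGTG and PFKP 1. A match describes letters and not a bound site.

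In untreated cells the members differed widely in mRNA level. Per kilobase of exon, ENO1 was highest at 599 ± 44.7 CPM (SD, n = 3), followed by LDHA at 178 ± 22.0, ALDOA at 157 ± 12.4, HK1 at 154 ± 7.56, PGK1 at 79.9 ± 3.86 and PKM at 56.7 ± 3.38. The transporters SLC2A1 and SLC2A3 lay at 32.8 ± 2.87 and 24.5 ± 6.15 CPM per kilobase, PFKP at 22.9 ± 0.585 and HK2 at 19.9 ± 1.61. Differences among LDHA, ALDOA and HK1 were within their spread. The lengths used merge all annotated exons of a gene (6210 bases for LDHA, 6153 for ALDOA, 6073 for HK1 and 8571 for PKM). This order therefore depends on the scaling by length. Without it, PKM at 486 ± 29.0 CPM lay above PGK1 at 432 ± 20.9 CPM (SD, n = 3). Together the members took 0.683% ± 0.0319 of all mRNA counts in CTRL and 0.417% ± 0.0205 after 18 h of IM. In nuclear RNA the corresponding shares were 0.723% ± 0.0265 and 0.471% ± 0.0584.

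**Figure D1:**
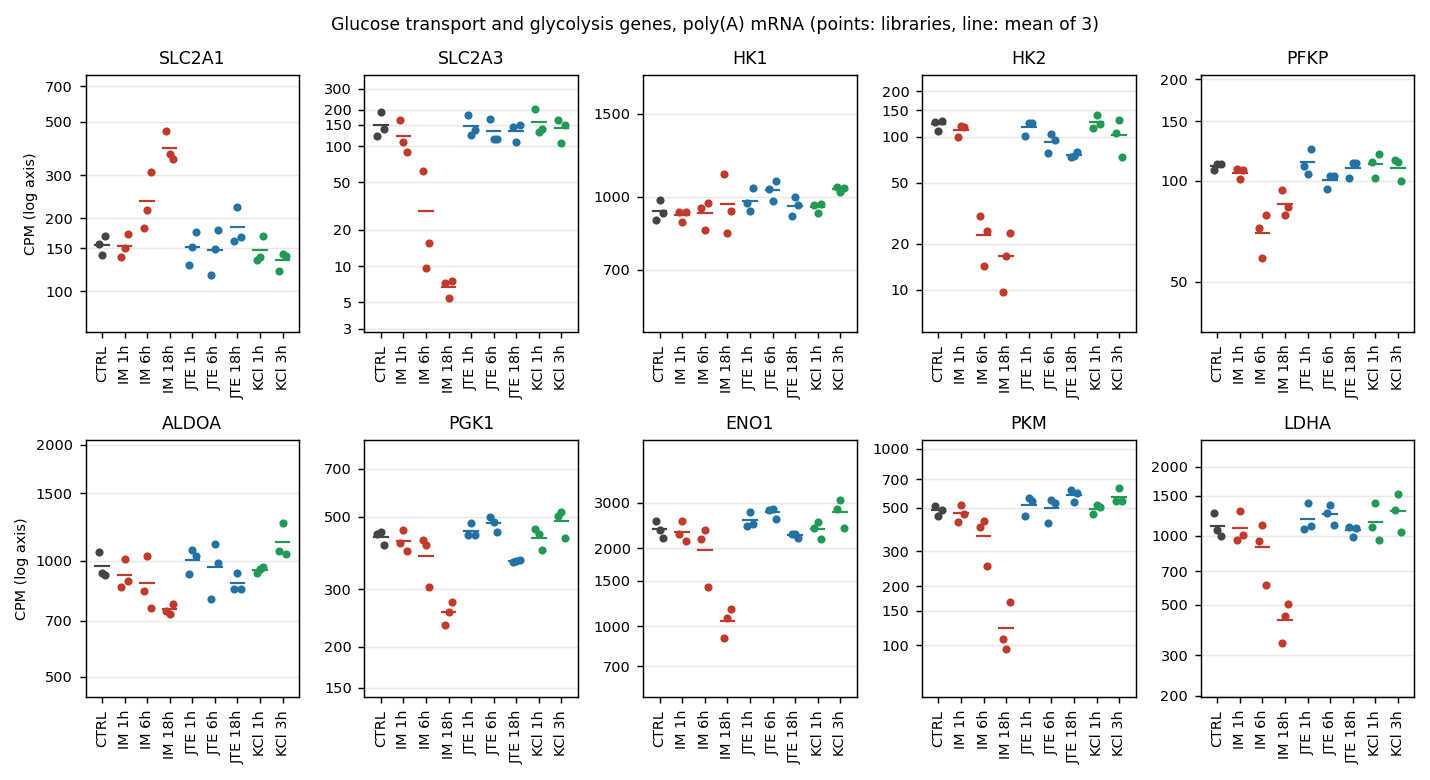
CPM (log axis, with a separate range for each gene) of the 10 genes in the 27 mRNA libraries, with a point per library and a line at the mean of 3. After 18 h of IM, SLC2A1 lies above all CTRL libraries, HK1 overlaps them and the other 8 genes lie below.

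After 18 h of IM the mRNA of 1 member rose and that of 6 fell. SLC2A1 was 2.52-fold above CTRL, whereas SLC2A3 was 22.5-fold and HK2 7.29-fold below it, and PKM, LDHA, ENO1 and PGK1 fell by smaller amounts. HK1 did not pass the test, and PFKP and ALDOA passed it with changes under the fold threshold, as part of 1 member higher and 8 lower at an adjusted p under 0.05 alone (22.8% and 21.0% of all genes). Among all 18095 genes tested, 17.2% were called higher and 13.2% lower in the same comparison. The median log2 fold change was -0.97 over the members and 0.04 over all genes.

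The transporters moved apart. SLC2A1, the transporter of red blood cells and of most proliferating cells, was at 156, 141 and 168 CPM in the 3 CTRL libraries and at 456, 367 and 349 CPM after 18 h of IM. The treated libraries were all higher than the CTRL libraries, and the log2 fold change was 1.34 (SE 0.18, edgeR adjusted p = 3.43e-06). SLC2A3, a high-affinity transporter prominent in neurons and white blood cells, was at 121, 194 and 137 CPM in CTRL and at 7.16, 5.42 and 7.53 CPM after 18 h of IM. Its libraries did not overlap either, with a log2 fold change of -4.49 (SE 0.51, edgeR adjusted p = 8.68e-07). SLC2A3 shares near-identical sequence with SLC2A14, so its count is uncertain where reads could not be placed uniquely. SLC2A14 itself was at 3.26 ± 0.758 CPM in CTRL and 0.144 ± 0.0339 CPM after 18 h of IM (SD, n = 3).

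The hexokinases also differed from each other. HK2, the inducible form, was at 125, 110 and 127 CPM in CTRL and at 9.65, 16.6 and 23.4 CPM after 18 h of IM. All treated libraries were lower, and the log2 fold change was -2.87 (SE 0.26, edgeR adjusted p = 2.64e-08). HK1, the form most cells express constantly, was at 893, 984 and 925 CPM in CTRL and at 1120, 837 and 932 CPM after IM. These libraries overlapped, and the log2 fold change was 0.04 (SE 0.08, edgeR adjusted p = 0.694). HK1 has several start sites, including an erythroid one, which gene counts do not separate.

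For PFKP and ALDOA the changes were small. PFKP, the platelet form of phosphofructokinase, went from 110 ± 2.83 CPM in CTRL to 85.3 ± 7.74 CPM, and ALDOA, the main aldolase of most tissues, from 969 ± 76.4 to 748 ± 24.4 CPM (SD, n = 3). Treated libraries were below CTRL for both genes, and both log2 fold changes were -0.37 (edgeR adjusted p = 0.00452 and 0.00959), under the fold threshold.

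The falls of PKM, LDHA, ENO1 and PGK1 were larger. PKM, the pyruvate kinase of most dividing cells, was at 513, 455 and 489 CPM in CTRL and at 108, 95.5 and 166 CPM after 18 h of IM. All treated libraries lay below CTRL, with a log2 fold change of -1.98 (SE 0.18, edgeR adjusted p = 1.82e-08). The counts do not separate the M1 and M2 splice forms of PKM. LDHA, which forms lactate, was at 1262, 1060 and 1002 CPM in CTRL and at 340, 444 and 502 CPM after IM, a log2 fold change of -1.37 (SE 0.19, edgeR adjusted p = 7.16e-06). ENO1, the general enolase, was at 2552, 2359 and 2198 CPM in CTRL and at 905, 1080 and 1162 CPM after IM, a log2 fold change of -1.18 (SE 0.13, edgeR adjusted p = 3.36e-07). Neither gene's libraries overlapped. PGK1, which makes the first ATP of glycolysis, fell from 432 ± 20.9 to 255 ± 20.7 CPM (SD, n = 3), a log2 fold change of -0.76 (SE 0.10, edgeR adjusted p = 3.32e-06). PGK1, ENO1, ALDOA, LDHA and PKM have pseudogene copies, and reads shared with these were not counted. Counting was without strand, and 8.5% of the exonic length of ALDOA is shared with another annotated gene.

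Across libraries, 1 member was higher in all 3 IM 18h libraries than in all CTRL libraries, 8 were lower and 1 overlapped. Among genes with a mean of at least 1 CPM, 29.7% were higher and 31.5% lower without overlap. Markers of the cell line moved in the same comparison: the summed level of the 12 K562 markers ran from 4879 to 6169 CPM in CTRL and from 12480 to 17280 CPM after 18 h of IM, with all 12 detected in both. Globins carried much of the sum, with HBE1 at 1120 and 4228 CPM and HBG2 at 1250 and 3807 CPM. Of the 12, 9 were higher in all treated libraries and 3, GATA1, BCR and ABL1, overlapped CTRL. Their part in the members' changes was not tested.

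**Figure D2:**
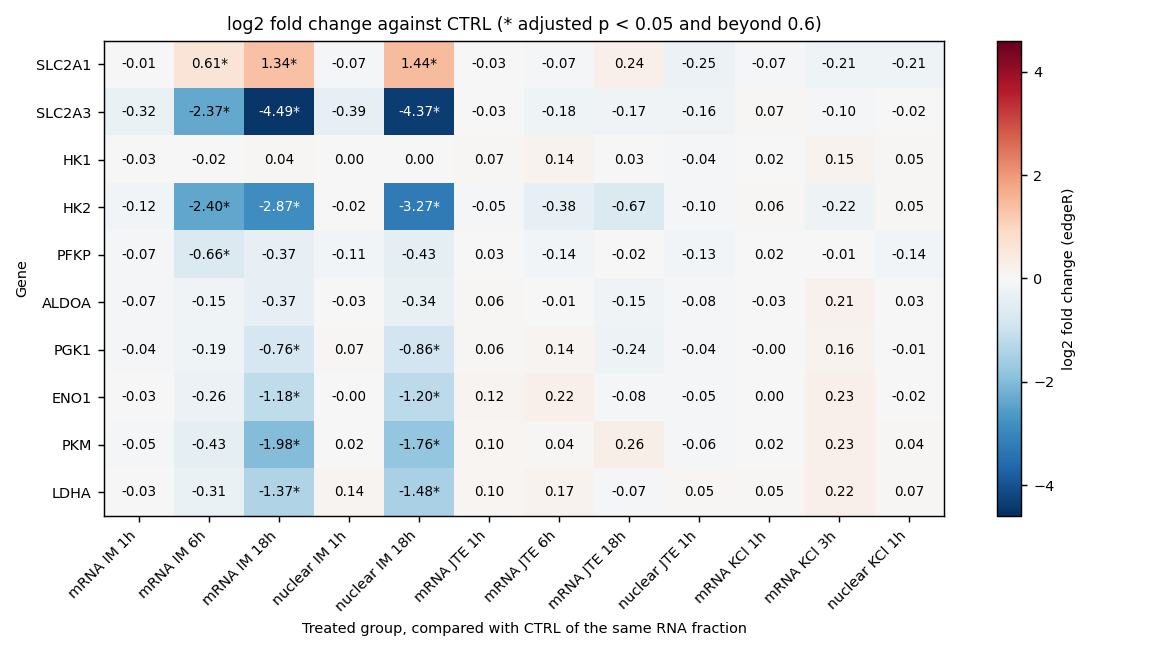
Log2 fold change (edgeR) of each of the 10 genes in 12 comparisons with CTRL of the same RNA fraction, as colour and number, with an asterisk at an adjusted p under 0.05 and a change beyond 0.6. Calls appear in the columns for IM at 6 and 18 h alone, led by SLC2A3 at -4.49 in mRNA after 18 h.

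The IM time course bears on when these changes began. After 1 h no member was called in mRNA by edgeR or DESeq2, none had an unadjusted p under 0.05, and log2 fold changes ran from -0.32 (SLC2A3) to -0.01 (SLC2A1). Among all genes 0.0% were called higher and 0.0166% lower at that time. After 6 h, SLC2A1 was called higher and SLC2A3, HK2 and PFKP lower, against 5.82% and 4.12% of all genes. Without overlap with CTRL, 1 member was higher and 4 were lower, against 18.2% and 18.0% of genes with a mean of at least 1 CPM. Set directly against IM 1h, IM 6h gave 1 member higher and 2 lower (4.58% and 3.62% of all genes), and IM 18h against IM 6h gave 1 higher and 4 lower (2.48% and 1.93%).

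HK2 was at 30.2, 14.2 and 24.1 CPM after 6 h, below all CTRL libraries, with a log2 fold change of -2.40 (SE 0.25, edgeR adjusted p = 2.16e-06). Its level at 18 h differed from that at 6 h by a log2 fold change of -0.47 (SE 0.25, edgeR adjusted p = 0.259).

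SLC2A3 was at 61.7, 9.62 and 15.6 CPM after 6 h, with the first library far above the other two and all 3 below CTRL. The log2 fold change was -2.37 (SE 0.45, edgeR adjusted p = 0.0011), and -2.12 between 6 and 18 h (adjusted p = 0.0109). Without IM 6h replicate 1 the 6 h change was -3.61, still called, and the step from 6 to 18 h was -0.91 and was not called. It was not called without IM 18h replicate 1 either (-2.17). In fits of only the 2 groups compared, neither the 6 h change (-2.38) nor the later step (-2.12) was called.

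SLC2A1 was at 181, 216 and 311 CPM after 6 h, above all CTRL libraries but close to them in replicate 1. The log2 fold change of 0.61 (SE 0.18, edgeR adjusted p = 0.0215) lay at the fold threshold, and the call was lost without IM 6h replicate 3 (0.34) and without CTRL replicate 1 (0.61) or 2 (0.52). It was also lost with DESeq2 (0.59), RLE factors (0.59), no filter on low counts (0.57), the replicate block (0.59) and a fit of only the 2 groups (0.60). SLC2A1 rose further by 0.73 between 6 and 18 h (adjusted p = 0.0142), a call lost without IM 6h replicate 1 (0.57) or 2 (0.67) or IM 18h replicate 1 (0.60).

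PFKP was at 72.3, 58.9 and 79.0 CPM after 6 h, again below every CTRL library, with a log2 fold change of -0.66 (SE 0.10, edgeR adjusted p = 0.000104). The call was lost without IM 6h replicate 2 (-0.58). PFKP at 18 h lay 0.28 above its 6 h value (adjusted p = 0.082).

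PKM, LDHA and ENO1 fell between 6 and 18 h, and PGK1 fell under the fold threshold (-0.58, edgeR adjusted p = 0.00181). PKM was at 400, 427 and 254 CPM after 6 h (log2 fold change -0.43, edgeR adjusted p = 0.0888) and fell by 1.55 between 6 and 18 h (adjusted p = 2.58e-05). LDHA, at 952, 1118 and 608 CPM after 6 h, fell by 1.06 between 6 and 18 h (adjusted p = 0.00225), and ENO1 by 0.92 (adjusted p = 0.000364). In PKM, LDHA, ENO1 and PGK1, IM 6h replicate 3 was the lowest library of its group, and in SLC2A1 it was the highest.

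Within a library, the ratio of 2 genes does not depend on scaling between libraries. Scaled by length, SLC2A3 stood to SLC2A1 at 0.734 in mRNA CTRL, 0.0700 after 6 h of IM and 0.0132 after 18 h. The log2 ratios were -0.74, 0.07 and -0.67 in CTRL and -6.37, -6.46 and -5.91 after 18 h, a difference of -5.80 without overlap (exact permutation test, two-sided, p = 0.1, adjusted p = 0.24 over 12 ratio tests; 0.1 is the smallest p that 3 against 3 libraries allow). HK2 stood to HK1 at 0.129 in CTRL, 0.0237 after 6 h and 0.0163 after 18 h, a log2 difference of -2.99 at 18 h (exact permutation p = 0.1). In nuclear RNA the differences after 18 h were -5.86 and -3.35, again without overlap and at the smallest p possible.

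**Figure D3:**
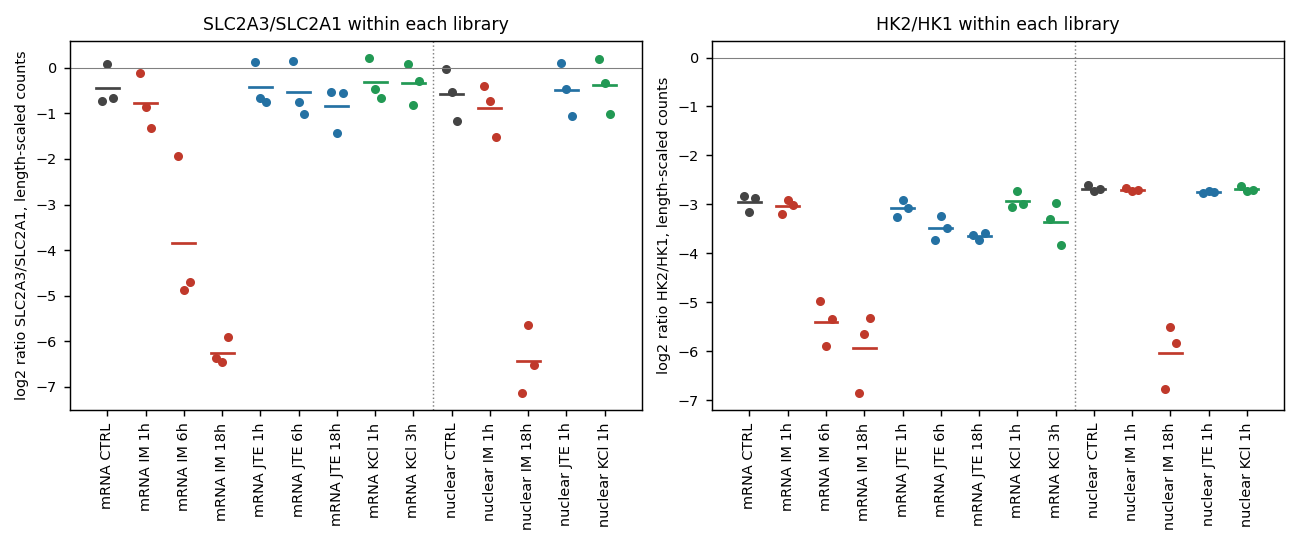
Log2 ratio of length-scaled counts of SLC2A3 to SLC2A1 (left) and HK2 to HK1 (right) in each of the 42 libraries, with a line at the group mean and the nuclear groups right of the dotted line. Both ratios are low in the IM 6h and 18h groups, and the IM 6h libraries of SLC2A3 to SLC2A1 spread from -4.87 to -1.94.

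Nuclear RNA gave the same 7 calls after 18 h of IM. Its counts are over exons and do not separate newly made from mature transcripts, and mitochondrial MT-CO1 was at 10950 CPM in nuclear CTRL. SLC2A1 was at 202, 237 and 266 CPM in nuclear CTRL and at 643, 557 and 712 CPM after IM, a log2 fold change of 1.44 (SE 0.15, edgeR adjusted p = 6.08e-07). SLC2A3 was at 258, 214 and 155 CPM in nuclear CTRL and at 5.95, 14.5 and 10.1 CPM after IM, a log2 fold change of -4.37 with an SE of 0.38 (edgeR adjusted p = 1.95e-06). Neither transporter's libraries overlapped those of CTRL.

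HK2 fell from 160 ± 4.39 to 16.7 ± 6.61 CPM in nuclear RNA (log2 fold change -3.27, SE 0.21, edgeR adjusted p = 1.15e-08; SD, n = 3). Nuclear PKM was at 541, 592 and 503 CPM in CTRL and at 81.8, 196 and 204 CPM after IM, where replicate 1 was the lowest, and the log2 fold change was -1.76 with an SE of 0.25 (edgeR adjusted p = 6.88e-05). LDHA fell by 1.48, ENO1 by 1.2 and PGK1 by 0.86 on the log2 scale. PFKP and ALDOA again passed the test under the fold threshold (-0.43 and -0.34), and HK1 was at 1028 ± 42.5 CPM in CTRL and 1031 ± 12.01 CPM after IM. Of all 21929 nuclear genes tested, 17.2% were called higher and 15.4% lower, and 22.6% and 23.1% passed the adjusted p alone, which 1 member passed higher and 8 lower. As in mRNA, 1 member was higher without overlap with CTRL, 8 were lower and 1 overlapped, against 27.6% and 33.2% of genes with a mean of at least 1 CPM. None of the 7 calls at 18 h was lost in either fraction under the alternatives tried or with any single library left out.

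The nuclear and mRNA responses to 18 h of IM were compared directly as an interaction. No member was called by edgeR or DESeq2 and none had an unadjusted p under 0.05, while 0.0551% of all genes were called with the higher and 0.0351% with the lower nuclear response. The nuclear minus mRNA difference ran from -0.35 for HK2 (SE 0.43) to 0.27 for PKM (SE 0.42), so differences of this size were not resolved. After 1 h of IM, no member was called in nuclear RNA by either tool, none had an unadjusted p under 0.05, and 0.00456% of all genes were called higher and 0.041% lower.

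**Figure D4:**
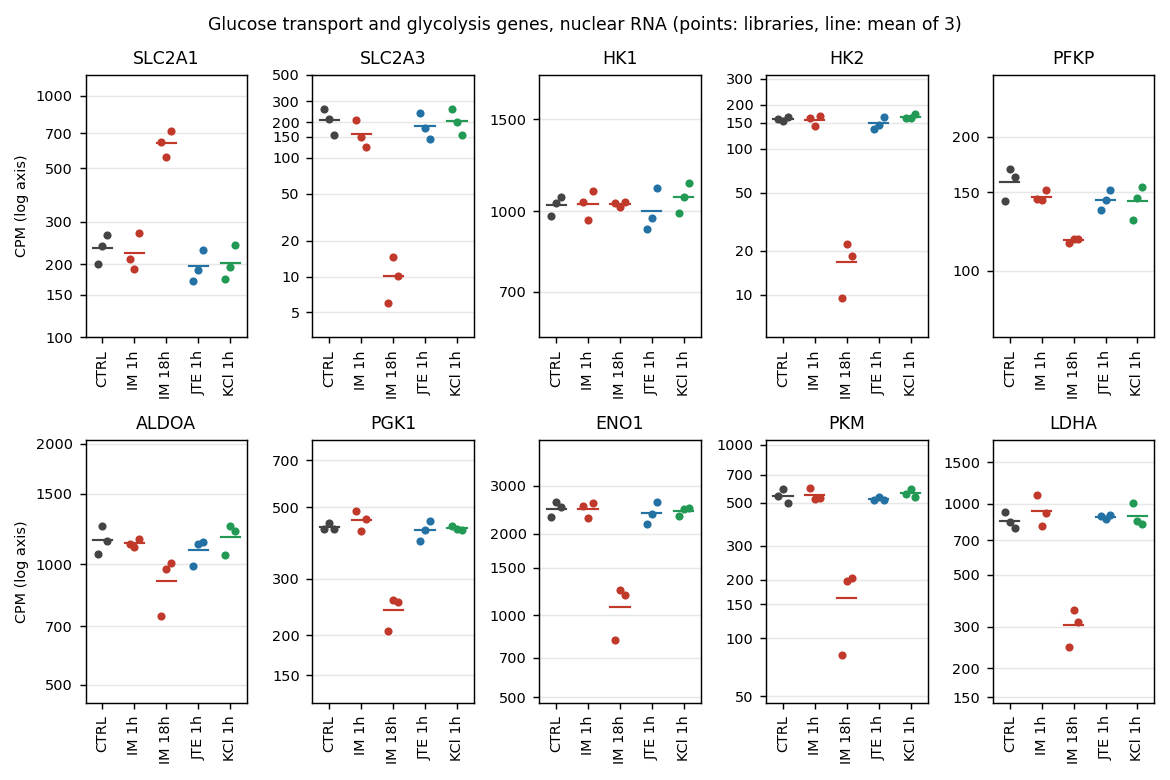
CPM (log axis, with a separate range for each gene) of the 10 genes in the 15 nuclear RNA libraries, with a point per library and a line at the mean of 3. In the IM 18h group, SLC2A1 lies above CTRL, HK1 overlaps it and the other 8 genes lie below.

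JTE and KCl were set beside IM to ask whether other treatments moved the same genes. KCl was sampled at 1 and 3 h alone, so it has no group at the 6 and 18 h at which IM called members. No member was called in the fit of all groups by edgeR, or by DESeq2, after JTE for 1, 6 or 18 h, although 6.73% of all genes were called higher and 6.47% lower at 6 h, and 3.29% and 2.09% at 18 h (0.387% and 0.464% at 1 h). Unadjusted p was under 0.05 for 2 members at 18 h and for none at 1 and 6 h. HK2 after 18 h of JTE was at 74.0, 75.2 and 79.2 CPM, below all CTRL libraries, with a log2 fold change of -0.67 (SE 0.24, edgeR adjusted p = 0.0829). HK2 was called in a fit of only these 2 groups (-0.65, edgeR adjusted p = 0.00213) and in one without a filter on low counts (-0.68, edgeR adjusted p = 6.68e-05). The length-scaled HK2 to HK1 ratio was 0.0798 in that group against 0.129 in CTRL (exact permutation p = 0.1, the smallest possible). PGK1, the other such member, was at 366 ± 2.81 CPM (log2 fold change -0.24, edgeR adjusted p = 0.154; SD, n = 3). Without overlap with CTRL, 2 members were higher (PGK1 and ENO1) and 2 lower (HK2 and PFKP) after 6 h of JTE, against 14.1% and 16.3% of genes with a mean of at least 1 CPM, and 1 was higher (PKM) and 2 lower (HK2 and PGK1) after 18 h, against 15.3% and 19.7%.

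Set directly against JTE 18h, IM 18h gave 1 member higher (SLC2A1, 1.09) and 5 lower (SLC2A3 at -4.32, PKM at -2.24, HK2 at -2.20, LDHA at -1.30 and ENO1 at -1.10, all edgeR), against 16.7% and 13.6% of all genes. At 6 h, SLC2A1 was called higher in IM than in JTE by 0.67, against 13.6% of all genes. SLC2A3 and HK2 were called lower, by log2 fold changes of -2.19 and -2.02, against 10.2%. PFKP (-0.52), ENO1 (-0.48), PKM (-0.47) and PGK1 (-0.33) were lower at an adjusted p under 0.05 but under the fold threshold. The SLC2A1 call was lost without IM 6h replicate 3 (0.43) or JTE 6h replicate 1 (0.53).

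KCl called no member by edgeR or DESeq2 at 1 or 3 h in mRNA or at 1 h in nuclear RNA, and no member had an unadjusted p under 0.05. The background was 2.51% higher and 2.94% lower in mRNA at 1 h, 4.55% and 7.33% at 3 h, and 15.3% and 8.5% in nuclear RNA. At 3 h log2 fold changes ran from -0.22 (HK2) to 0.23 (PKM), and the members took 0.754% ± 0.0547 of all counts. HK1, at 1047, 1024 and 1043 CPM, and PKM lay above all CTRL libraries at 3 h and no member lay below, against 13.4% and 15.3% of genes with a mean of at least 1 CPM. Nuclear JTE 1h also called none by either tool, with no unadjusted p under 0.05, while 7.0% of genes were called higher and 1.51% lower. A fit blocked on replicate number took same-numbered nuclear libraries as pairs. There SLC2A1 passed the adjusted p below the fold threshold, at -0.26 after JTE (SE 0.08, edgeR adjusted p = 0.0143). After KCl it passed at -0.22 (SE 0.08, edgeR adjusted p = 0.0252), and SLC2A1 was lower in all 3 pairs of each treatment. PFKP after KCl had an unadjusted p of 0.0444 in that fit (edgeR adjusted p = 0.103).

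Members followed the mean of the 10 centred profiles over the 9 mRNA groups to different degrees. Pearson's r with that mean was 0.995 for SLC2A3, 0.966 for HK2, 0.961 for LDHA, 0.793 for PFKP, 0.310 for HK1 and -0.980 for SLC2A1. This is a description over 9 group means, and the mean contains each member. The profiles were centred but not scaled, so members with large changes, such as SLC2A3 and HK2, weigh most in it. Of 8706 other genes, GRSF1, PRPF19, DIAPH1, CCDC86 and WDR46 followed the mean most closely, with r from 0.996 (WDR46) to 0.997 (GRSF1). As the highest of 8706 values over 9 group means, these r are raised by selection.

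Other genes of the pathway did not all move one way after 18 h of IM. Among 17 tested enzymes and isoforms of glycolysis outside the members, 4 were called higher and 4 lower, beside 17.2% and 13.2% of all genes, the background for each list of this comparison. PKLR, the pyruvate kinase of liver and red blood cells, was at 116, 127 and 59.5 CPM in CTRL and at 489, 346 and 402 CPM after IM (log2 fold change 2.03, SE 0.36, edgeR adjusted p = 0.000117). Per kilobase, PKM made up 59.5% of the pyruvate kinase mRNA in CTRL and 8.35% after 18 h of IM, with PKLR as the remainder. The length used for PKM, 8571 bases, merges all its annotated exons, so these shares depend on the scaling. Without scaling by length, PKM and PKLR were at 486 and 101 CPM in CTRL and at 123 and 412 CPM after 18 h of IM. BPGM, which makes the 2,3-bisphosphoglycerate of red blood cells, rose by 1.55 and PFKFB4, which sets the level of an activator of phosphofructokinase, by 1.08. PKLR, BPGM and PFKFB4 were named for the size of their changes, and all rose. Other enzymes were lower after 18 h of IM. GPI went from 376 ± 17.9 to 227 ± 16.7 CPM and TPI1 from 425 ± 52.5 to 294 ± 24.3 CPM (SD, n = 3). GAPDH was at 1090 ± 112.5 CPM in CTRL and 976 ± 89.1 CPM after IM.

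**Figure D5:**
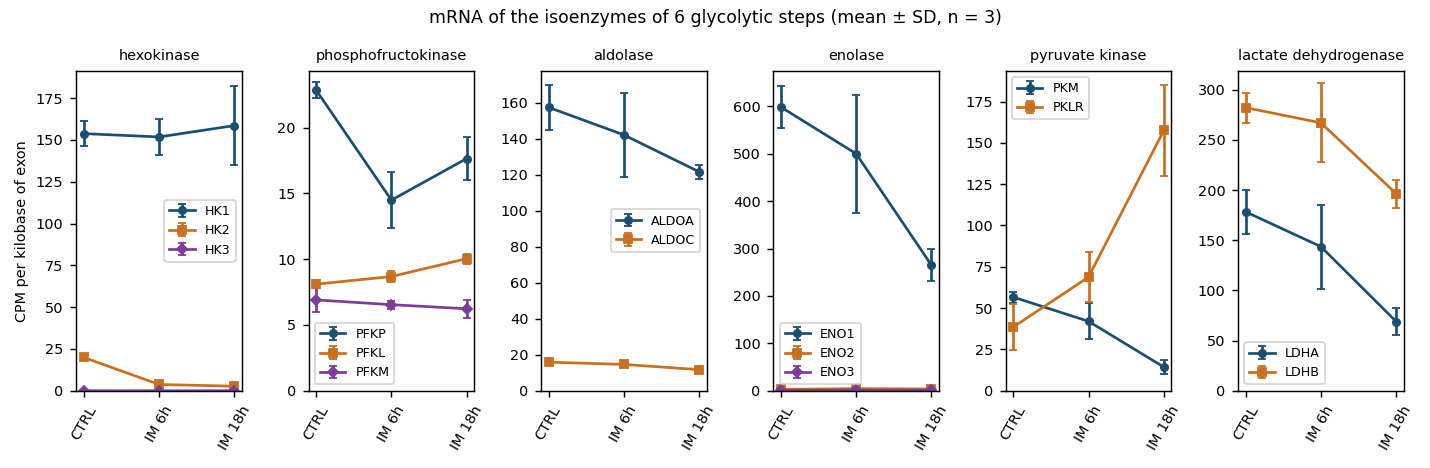
Mean mRNA level (CPM per kilobase of exon, linear axes from 0, error bars SD, n = 3) of the isoenzymes of 6 glycolytic steps in CTRL, IM 6h and IM 18h. On this length-scaled measure PKM and PKLR change places as the more abundant pyruvate kinase mRNA, while HK1 stays the main hexokinase.

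Among 10 tested transporters of sugar and lactate, 2 were called higher and 2 lower. SLC16A1, which carries lactate, went from 339 ± 17.5 to 188 ± 26.6 CPM, and BSG, its chaperone, from 347 ± 13.4 to 560 ± 38.2 CPM (SD, n = 3). Of 12 genes of pyruvate entry into mitochondria, 1 was called higher and 3 lower, with the phosphatase PDP2 at -1.07, the dehydrogenase subunit DLAT at -0.75 and the pyruvate carrier MPC1 at -0.67. Of 8 genes of the pentose phosphate pathway 2 were called higher and 2 lower, with H6PD at 2.22, RPIA at -0.75 and PGLS at 0.64, and of 7 glycogen genes PYGB alone was called (-0.74).

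Of 13 regulators of glucose use, 3 were called higher and 4 lower after 18 h of IM (17.2% and 13.2% of all genes). MYC was at 277, 368 and 229 CPM in CTRL and at 83.7, 96.8 and 112 CPM after IM, without overlap, and its log2 fold change was -1.58 with an SE of 0.29 (edgeR adjusted p = 0.00014). TXNIP, which restrains glucose uptake, was at 246, 402 and 226 CPM in CTRL and at 913, 746 and 700 CPM after IM, a log2 fold change of 1.43 with an SE of 0.39 (edgeR adjusted p = 0.00526), and its relative ARRDC4 rose by 1.86. Of 11 hypoxia-inducible genes outside the members, 4 were called higher and 1 lower, with BNIP3L at 0.95, P4HA2 at 0.89 and MXI1 at 0.64. In groups where no member was called, some genes of these lists were. Of 78 tested, 1 was called higher and 6 lower after 3 h of KCl (4.55% and 7.33% of all genes). After 6 h of JTE, 0 were called higher and 2 lower (6.73% and 6.47% of all genes). In nuclear RNA after 1 h of KCl, 6 of 80 were called higher and 0 lower (15.3% and 8.5% of all genes). After 3 h of KCl, TXNIP fell by 2.57, ARRDC4 by 1.41, PDP2 by 0.93, EGLN3 by 0.88 and the inositol transporter SLC5A3 by 0.67. RPE of the pentose phosphate pathway fell by 1.12 after 6 h of JTE. The glycogen synthase GYS1 rose by 0.65 in nuclear RNA after 1 h of KCl.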

How the data were processed

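Per gene, the deposited values were unnormalized counts of read pairs, obtained by the authors by trimming and deduplicating reads, aligning them to hg38 with STAR and counting exons with featureCounts, without a strand option and with uniquely mapped reads only. The alignment settings the study gives allowed introns of at most 10000 bases. If they apply to these tables, pairs over the longer gaps of SLC2A1, HK1, HK2, PFKP and PGK1 would not be counted, which was not measured. The annotation release was not given in the sources used here. Of 58243 gene rows, 57532 matched GENCODE 44 by identifier, and 41836 had a symbol. Exon lengths were those given in the deposited count tables. Every count column belonged to a sample.

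From these counts, CPM used TMM-scaled library sizes. All libraries of a fraction entered 1 edgeR 4.0.16 fit (R 4.3.3, filterByExpr, robust quasi-likelihood) with 1 term per group, which tested 18095 mRNA and 21929 nuclear genes. The nuclear minus mRNA difference was an interaction. On simulated data, 82% of mRNA and 97% of nuclear genes changed by a log2 fold change of 1 were recovered for IM 18h against CTRL. Ratios of 2 genes added 0.5 counts. Replicates differed by more than sampling noise (chi-square per gene from 2.37 to 62.5). Groups and replicate numbers came from the sample titles. Deviations from group means correlated between same-numbered nuclear libraries, CTRL with each treatment, from 0.235 to 0.892, so the numbers were taken as pairs. Nuclear IM 18h replicate 2 correlated at 0.00917 with IM 1h, 0.0766 with JTE 1h and 0.0613 with KCl 1h. Its replicates 1 and 3 correlated with these groups from 0.435 to 0.634.

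Alternatives were DESeq2 1.42.0, RLE factors, library totals, no filter on low counts, a fit of only the compared groups, a replicate block and leaving out each library. All members were named, and from the other lists up to 3 called genes with the largest change and a mean of at least 10 CPM in the higher group, for IM 18h, JTE 6h, KCl 3h and nuclear KCl 1h. The members, lists and tests were chosen with earlier results of these data known. The step-by-step view of isoenzymes and the values of SLC2A14, GPI, TPI1 and GAPDH were added after values were seen.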

Additional observations from a re-analysis of the deposited data

Results flagged for a closer look

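Levels after IM differed between time points for several members by a direct edgeR test of one time against another. Without a CTRL group at each time, time in culture is not separated from the drug. From 1 to 6 h, SLC2A1 changed by 0.62, HK2 by -2.28 and SLC2A3 by -2.05 on the log2 scale (adjusted p = 0.0215, 3.94e-06 and 0.00387). From 6 to 18 h, SLC2A1 changed by 0.73, SLC2A3 by -2.12, ENO1 by -0.92, LDHA by -1.06 and PKM by -1.55. After JTE, PGK1 alone passed the adjusted p between these later times (-0.38, edgeR adjusted p = 0.00989), under the fold threshold. The SLC2A1 call between 1 and 6 h was lost when IM 6h replicate 3 was left out (0.36), and likewise for IM 1h replicate 1 (0.53) or 2 (0.61).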

How the results depend on the processing

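The 7 calls after 18 h of IM held in mRNA and in nuclear RNA under every alternative listed in the methods and with each library left out. A fit of only the compared groups called 2 members for IM 6h against CTRL, 1 for JTE 18h against CTRL (HK2), 1 for IM 6h against IM 1h and 3 for IM 18h against IM 6h, where SLC2A1 and SLC2A3 lost their calls; without a filter on low counts JTE 18h against CTRL gave 1. With a library left out, IM 18h against IM 6h gave 3 to 6 members, with 3 when replicate 1 of either IM group was left out, and IM 6h against JTE 6h gave 2 to 6, with 6 without IM 6h replicate 2. For SLC2A1 at IM 6h against CTRL, the change fell under the fold threshold with RLE factors (0.59), no filter (0.57), DESeq2 (0.59) and the replicate block (0.59), and for PFKP with library totals (-0.60). Leaving out a library turned the sign of the difference from CTRL in the log2 ratio of SLC2A3 to SLC2A1 for mRNA KCl 3h (-0.10 to 0.36), nuclear JTE 1h (-0.20 to 0.39) and nuclear KCl 1h (-0.10 to 0.50), and of HK2 to HK1 for nuclear KCl 1h (-0.031 to 0.036). In the nuclear JTE and KCl groups the SLC2A3 to SLC2A1 differences were positive in all 3 same-numbered pairs (0.065 to 0.12 and 0.15 to 0.23), and leaving out a library breaks a pair. The causes were not tested.

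The replicate block called 3 members in place of 4 for IM 6h against CTRL and left the other counts of called members as they were. In mRNA, same-numbered CTRL and treated libraries correlated from -0.368 to 0.877, at 0.0791 or below for numbers 1 and 2 and above 0 for number 3, while IM 1h and JTE 1h correlated at 0.825 to 0.845. The study's read statistics list a pair of the mRNA CTRL libraries under each other's numbers, so mRNA values from the replicate block may rest on mismatched CTRL libraries. None were exchanged, and fits without the block do not use the numbers. With library totals, the median of all genes shifted to 0.12 for IM 6h against JTE 6h. With 3 libraries per group the ratio tests cannot give a p under 0.1.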
